A study of Mus musculus with 6 samples.

Results

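Long non-coding RNAs (lncRNAs) that were well expressed in osteoclast precursors (OCPs) were compared between WT and *lincRNA-EPS* knockout (KO) cells. The members were chosen by the class in the deposited table and by level. A gene was taken when its biotype named a long non-coding class and when its mean over the 6 libraries was 50 counts or more, and *Ttc39aos1*, the table's name for *lincRNA-EPS*, was left out. Of 57180 genes in the table, 11720 carry a long non-coding class, 4428 of these had any count, and 297 were members. Since the level chose them, their levels are a description. The minimum was set on WT and KO together, so near it the difference between genotypes could decide entry. The mean was 50 counts or more in each genotype for 266 members, while 20 were under 50 counts in WT and entered through KO, and 11 were under 50 counts in KO and entered through WT. All 297 passed the filter on low counts, so none dropped out of the comparison. Just inside the minimum were *4933407K13Rik* and *Gm32856*, with means of 50.2 and 50.3 counts, and just outside were ENSMUSG00000121482 and *2610203C22Rik*, with 49.7 and 49.5 counts.

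Bone marrow-derived macrophages were taken from wild-type C57BL/6 mice and from mice without *lincRNA-EPS*. Both genotypes were grown for 24 h with M-CSF at 40 ng/ml, which keeps macrophages alive and dividing, and for a further 48 h with RANKL at 40 ng/ml, the signal for osteoclast formation. There were 3 libraries per genotype, described as biologically independent, and the sources used here do not give the age of the marrow donors, the part of the gene that was deleted, or whether marrow was pooled. Libraries were made with a stranded kit for polyadenylated RNA, so an RNA without a poly(A) tail is captured poorly.

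A lncRNA is transcribed and usually spliced and polyadenylated like a messenger RNA, but is not known to encode a protein. The class used here is that of the deposited table. The GENCODE M21 annotation classes 6 of the members as protein-coding, *Erdr1y* and *Erdr1x* among them. Some stay in the nucleus and shape nuclear bodies or chromatin, some lie across a coding gene on the opposite strand, and some serve mainly as hosts: small RNAs are cut out of the primary transcript, and the spliced remainder is what RNA-seq of polyadenylated RNA counts. MicroRNA hosts release hairpins that become mature microRNAs, which silence messenger RNAs through the seed near their 5′ end. Small nucleolar RNA (snoRNA) hosts carry in their introns the guides that direct chemical modification of ribosomal RNA.

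Of the members, 9 contain 17 microRNA hairpins on their own strand in the GENCODE M21 annotation of GRCm38. The mature sequences of the hosts that the comparison turns on are shown here because their seeds (bases 2 to 8, in capitals) define which microRNAs share targets. They are RefSeq sequences of GRCm38.p6, written 5′ to 3′. Mature microRNAs were not measured in these libraries.
mmu-miR-142a-5p (*Mir142hg*, chr11:87756867-87756887, plus strand): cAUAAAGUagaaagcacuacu
mmu-miR-142a-3p (*Mir142hg*, chr11:87756903-87756925, plus strand): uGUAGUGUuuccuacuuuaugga
mmu-miR-223-3p (*F630028O10Rik*, chrX:96242884-96242905, plus strand): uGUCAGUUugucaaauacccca
mmu-miR-22-3p (*Mir22hg*, chr11:75463772-75463793, plus strand): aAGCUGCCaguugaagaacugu
mmu-miR-17-5p (*Mir17hg*, chr14:115043684-115043706, plus strand): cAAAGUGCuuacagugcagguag
mmu-miR-20a-5p (*Mir17hg*, chr14:115044183-115044205, plus strand): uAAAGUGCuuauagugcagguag
mmu-miR-18a-5p (*Mir17hg*, chr14:115043867-115043889, plus strand): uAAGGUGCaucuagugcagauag
mmu-miR-19a-3p (*Mir17hg*, chr14:115044048-115044070, plus strand): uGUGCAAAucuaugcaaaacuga
mmu-miR-19b-3p (*Mir17hg*, chr14:115044358-115044380, plus strand): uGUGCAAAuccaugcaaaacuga
mmu-miR-92a-3p (*Mir17hg*, chr14:115044476-115044496, plus strand): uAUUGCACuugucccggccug
mmu-let-7d-5p (*6720427I07Rik*, chr13:48536078-48536099, minus strand): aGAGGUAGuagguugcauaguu
mmu-let-7f-5p (*6720427I07Rik*, chr13:48537889-48537910, minus strand): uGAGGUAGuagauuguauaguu
mmu-let-7a-5p (*6720427I07Rik*, chr13:48538239-48538260, minus strand): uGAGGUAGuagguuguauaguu
The 3 let-7 members share the seed GAGGUAG, miR-17-5p and miR-20a-5p share AAAGUGC, and miR-19a-3p and miR-19b-3p share GUGCAAA, while the other sequences shown have seeds of their own among them.

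The libraries held 17757351 to 19998611 counts. *Ttc39aos1* had 20, 37 and 41 counts in the WT libraries and 0 in each KO library, where 3 counts correspond to at most 0.169 CPM, the counts scaled to the size of the library. All 10 macrophage and osteoclast precursor markers were present at a mean of 50 counts or more. Of 7 neutrophil genes, 6 had a mean of 50 counts or more and none was at 0 in all libraries, and their summed level was 1076 to 1263 CPM in WT and 1499 to 1792 CPM in KO, without overlap, and summed B cell and erythroid markers stayed at or below 5.74 CPM. Further sums were low but also did not overlap between genotypes, namely dendritic cell markers (11.7 to 14.6 CPM in WT and 15.1 to 16.0 CPM in KO), mast cell and basophil markers (0.873 to 1.64 and 2.70 to 3.21 CPM) and T and NK cell markers (1.69 to 2.16 and 2.30 to 2.70 CPM). Stromal and osteoblast markers overlapped, at 24.1 to 32.0 CPM in WT and 20.9 to 30.2 CPM in KO. The part of these cell types in the members' differences was not tested. In bulk RNA, a change in the number of cells of a kind and a change in RNA per cell cannot be told apart.

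The members took a larger share of the KO libraries than of the WT libraries. They held 0.849%, 0.730% and 0.824% of all counts in WT replicates 1, 2 and 3, and 0.926%, 0.971% and 0.995% in KO replicates 1, 2 and 3. Each KO library lay above each WT library, with WT replicate 2 lowest and KO replicate 3 highest. The 95% exact Clopper-Pearson intervals, which cover counting error only, were as narrow as 0.726% to 0.734% for WT replicate 2. *Malat1* and *Neat1* together made up 14.7% to 20.2% of the member counts. Counts of the ribosomal RNA gene *Rn18s-rs5* were 2.71% of KO replicate 2 and at most 0.575% of the others, and without that gene the members' shares were 0.732% to 0.854% in WT and 0.929% to 0.998% in KO.

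**Figure D1:**
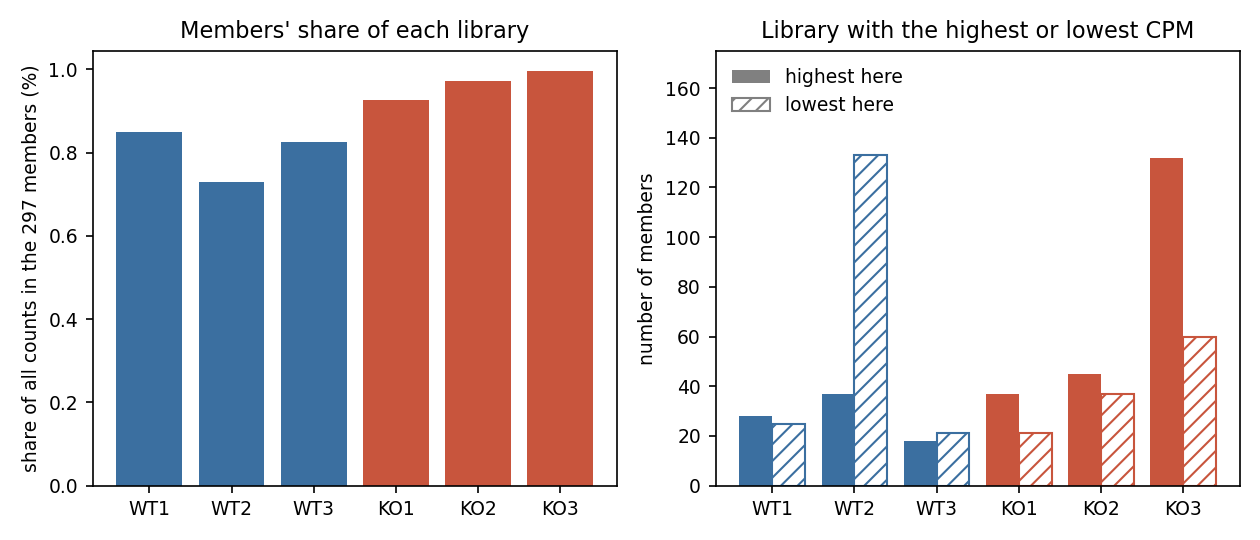
Left, the share of all counts (%) that fell on the 297 members in each library, with WT in blue and KO in red. Right, the number of members whose CPM was highest (filled) or lowest (hatched) in each library. The 3 KO shares lie above the 3 WT shares, and WT2 holds the lowest value of 133 members and KO3 the highest value of 132.

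Member by member, the direction was mostly the same but no gene passed the limits. Of the 297 members, 0 passed both limits (adjusted p below 0.01, fold change over 1.3) in edgeR's quasi-likelihood test, where 0.00745% of all 13428 genes tested did. The lowest adjusted p-value among them was 0.131 (Benjamini-Hochberg). At an unadjusted p-value under 0.05, 73 members were higher in KO, or 24.6% of them beside 13.0% of all genes, and 14 were lower, or 4.71% beside 13.2%. With all 6 values compared directly, 70 members had every KO library above every WT library (16.9% of all genes did) and 19 had every KO library below (18.8% of all genes). The median log2 fold change was 0.17 over the members, 0.0091 over all genes tested and -0.0020 over the 10358 protein-coding genes with the same minimum level. Fitted values were positive for 200 members and negative for 97. These counts and the median include the 20 members that entered only through KO and the 11 that entered only through WT. The direction of those members is tied to their entry, and the 266 others were not read separately.

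**Figure D2:**
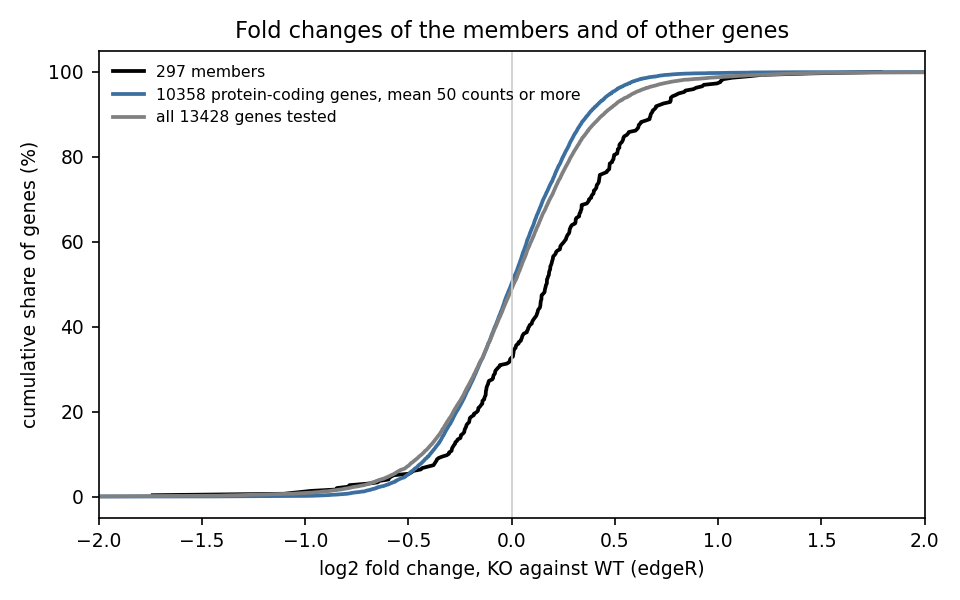
Cumulative share of genes (%) against the log2 fold change of KO against WT from edgeR, for the 297 members (black), the 10358 protein-coding genes with a mean of 50 counts or more (blue) and all 13428 genes tested (grey). The members' curve lies to the right, with a median of 0.17 against -0.0020 and 0.0091.

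The lean differed with the level of the members. Among the 25 members with a mean of 1000 counts or more, 13 were higher at an unadjusted p-value under 0.05 (52.0%) and 0 were lower, with a median log2 fold change of 0.26. Among the 145 with a mean of 100 to 1000 counts, 38 were higher (26.2%) and 8 lower (5.52%), with a median of 0.16. Among the 127 with a mean under 100 counts, 22 were higher (17.3%) and 6 lower (4.72%), with a median of 0.14. All genes had 13.0% higher and 13.2% lower, and the difference between the levels was not tested. The 77 members with whole counts in every library had a median of 0.19. The 220 members with a count that was not whole, which arises where reads are divided between genes, had a median of 0.16. Only 25.9% of the members had whole counts throughout, against 63.2% of protein-coding genes of the same level, so more of the members depend on how shared reads were divided. The 79 members that GENCODE M21 does not hold had a median of 0.16, close to the 0.17 of the 218 that it holds.

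The lean was carried unevenly by the libraries. KO replicate 3 held the highest CPM for 44.4% of the members, against 33.8% of all genes, and WT replicate 2 the lowest CPM for 44.8%, against 29.7% of all genes. Without WT replicate 2, 38 members were higher and 8 lower at an unadjusted p-value under 0.05 (12.8% and 2.69% of the members, beside 5.61% and 5.60% of all genes). With WT replicate 2 and KO replicate 3 both left out, 53 members were higher and 10 lower (17.8% and 3.37%, beside 8.98% and 9.63% of all genes), and the median log2 fold change was 0.071. Without KO replicate 3 alone it was 0.099. The count of lower members moved with every library, as did the share of all genes. It was 9, 8 and 9 without WT replicates 1, 2 and 3 (3.03%, 2.69% and 3.03%, beside 10.9%, 5.60% and 10.4% of all genes). It was 25, 7 and 9 without KO replicates 1, 2 and 3 (8.42%, 2.36% and 3.03%, beside 16.7%, 9.24% and 10.3% of all genes).

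The GC content of the transcripts moved with the members' differences. Over the 218 members with a transcript in the annotation, the KO to WT log2 difference had a Pearson r of -0.48 with GC content. These points share the same 6 libraries, and within a genotype the difference between KO replicates 3 and 1 had r = -0.50 and the difference of WT replicate 2 from WT replicate 1 gave r = 0.39. In the third of members with the lowest GC content, 23 of 73 were higher and 0 lower at an unadjusted p-value under 0.05, with a median of 0.31. In the third with the highest, 11 of 73 were higher and 7 lower, with a median of -0.073. Over all genes, whatever their GC content, 13.0% were higher and 13.2% lower. After each library was corrected for GC content, 46 of the 218 were higher and 14 lower, against 53 and 10 before. All genes then had 12.4% higher and 13.5% lower. With the correction, 13 were higher and 4 lower among the 73 members of lowest GC content, and 16 were higher and 5 lower among the 73 of highest GC content. The median over the 218 fell from 0.17 to 0.085. With the correction, *Gm42047*, *Snhg1*, *Gm20186* and *Mir142hg* had adjusted p-values from 0.0239 to 0.0469 at more than 1.3-fold, all higher in KO, beside 0.454% of all genes higher at these limits. With the replicate number added as a block, the lowest adjusted p-value of a member was 0.0514, so none of the 4 stayed under 0.05.

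**Figure D3:**
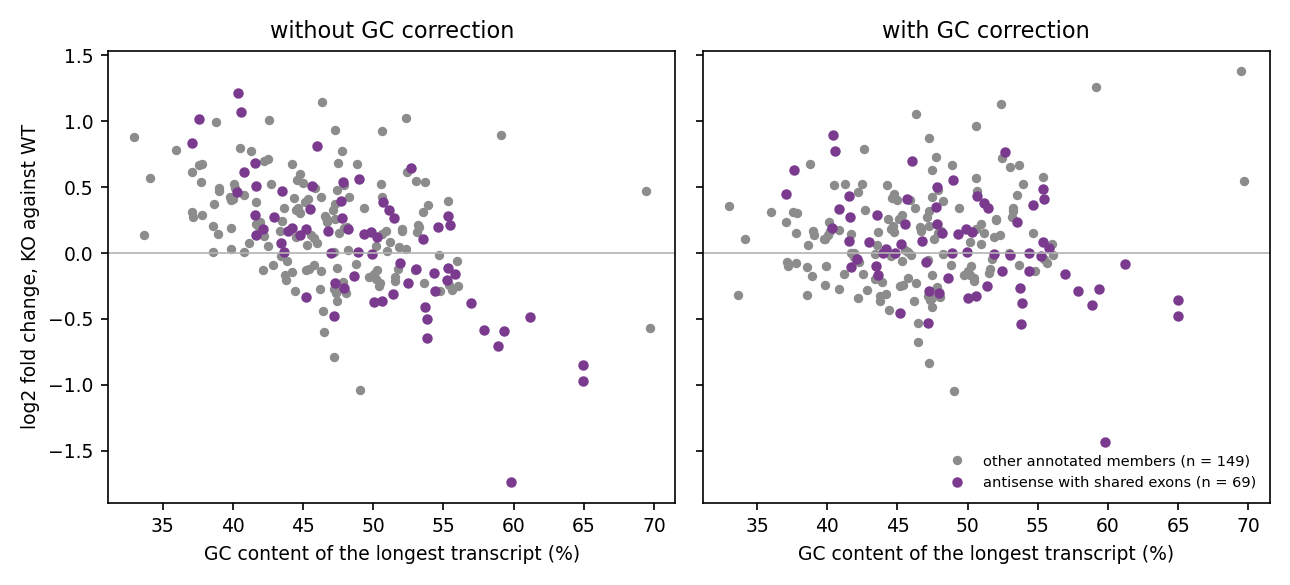
Log2 fold change of KO against WT for the 218 annotated members against the GC content of their longest transcript (%), before (left) and after (right) the GC correction. Members antisense to a coding gene with shared exons are purple (n = 69) and the others grey (n = 149). On the left the values fall with GC content (r = -0.48), and 5 of the 8 lowest values belong to antisense members.

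Among the most abundant members are nuclear RNAs. *Malat1*, a nuclear speckle RNA (chr19:5795690-5802672 in GRCm38, minus strand, 1 exon), had the highest mean count. It was measured at 719, 486 and 596 CPM in WT replicates 1, 2 and 3 and at 865, 1147 and 947 CPM in KO replicates 1, 2 and 3. The lowest KO value was above the highest WT value, and the group means were 600.2 ± 116 and 986 ± 145 CPM (SD, n = 3 each). The log2 fold change was 0.72 (± 0.16 SE, unadjusted p = 0.00170, adjusted p = 0.147 in edgeR). *Neat1*, the scaffold of nuclear paraspeckles and the neighbour of *Malat1* (chr19:5824708-5845478, minus strand), had 692, 589 and 644 CPM in WT and 720, 859 and 722 CPM in KO. Its values did not overlap either, but the difference was smaller, with a log2 fold change of 0.26 (± 0.11 SE, adjusted p = 0.187). Both RNAs were highest in KO replicate 2, which also had the largest share of *Rn18s-rs5* counts (2.71% against at most 0.575%). Whether RNA capture in that library had a part in these differences was not tested. Per kilobase of all annotated exons (6983 and 20771 bases), *Malat1* stood at 86.0 CPM in WT and *Neat1* at 30.9 CPM. An RNA present mainly as a shorter transcript would be understated by this measure.

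Other abundant members fell on both sides of no change. ENSMUSG00000121784, which has no symbol, had 597, 480 and 582 CPM in WT and 659, 745 and 923 CPM in KO (log2 fold change 0.49, adjusted p = 0.147 in edgeR). ENSMUSG00000121777, likewise without a symbol, had 565, 463 and 558 CPM in WT and 592, 692 and 446 CPM in KO, which overlapped, with a log2 fold change of 0.13. *Gm6793* carries the description of an *Hnrnpa3* pseudogene and may share reads with that gene. It had 526, 349 and 511 CPM in WT and 554, 616 and 691 CPM in KO, a log2 fold change of 0.43 (adjusted p = 0.162). For *AI506816*, *D17H6S56E-5* and *Gm15501* the WT and KO libraries overlapped, and they differed by -0.13, 0.18 and -0.079 on the log2 scale, at adjusted p-values from 0.321 to 0.751. CPM per kilobase of exon scales by the length of all annotated exons, whichever transcripts are present. By this measure, the order in WT over the 218 annotated members was led by *Gm20186* (142), *Gm42031* (104), *Erdr1y* (93.9), *AI506816* (90.5), *Malat1* (86.0) and *Mir142hg* (81.5). *Gm42031* and *Erdr1y* were chosen after their values were seen.

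The list of nuclear and chromatin-associated RNAs named 10 genes, and 6 of these were members, *Malat1* and *Neat1* among them. *Norad* was placed on this list although it is known mainly as a cytoplasmic RNA, one that binds Pumilio proteins and is induced by DNA damage. It had 252, 208 and 240 CPM in WT and 229, 247 and 296 CPM in KO (log2 fold change 0.14, adjusted p = 0.473). *Firre*, which anchors chromosome regions in the nucleus, had a log2 fold change of 0.14 (adjusted p = 0.50). *Kcnq1ot1* silences neighbouring imprinted genes in cis and had 12.9, 9.20 and 11.0 CPM in WT and 10.8, 17.8 and 17.1 CPM in KO, so its groups overlapped (log2 fold change 0.46, adjusted p = 0.196). *Airn*, the imprinted RNA that silences *Igf2r*, went the other way, with 5.01, 5.25 and 4.57 CPM in WT and 3.96, 3.74 and 2.14 CPM in KO, and a log2 fold change of -0.60 (adjusted p = 0.163). In all, 2 of the 6 were higher and 1 lower at an unadjusted p-value under 0.05, beside 13.0% and 13.2% of all genes, with a median log2 fold change of 0.20. With the GC correction, 1 was higher, *Malat1*, and 1 lower, *Airn* (12.4% and 13.5% of all genes), and *Neat1* had an unadjusted p-value of 0.0663 in edgeR's test. Of 9 imprinted RNAs on the list, 3 were members. *Peg13* had 18.7, 19.3 and 20.3 CPM in WT and 18.4, 17.9 and 14.9 CPM in KO, each KO value below each WT value, with a log2 fold change of -0.18 (adjusted p = 0.348). The median of these 3 was -0.18.

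MicroRNA hosts had the highest median of the lists. Of 14 hosts listed, 4 were members (*Mir142hg*, *Mir22hg*, *Mir17hg* and *Ftx*), and all 4 were higher in KO at an unadjusted p-value under 0.05, with a median log2 fold change of 0.58 and adjusted p-values from 0.131 to 0.168. With the GC correction 3 of the 4 were under that limit, without *Mir17hg*, and the median was 0.43. Over the 9 members that contain a hairpin, 6 were higher and 1 lower at that p-value, with a median of 0.56. Among these, *6720427I07Rik* (higher) passed the minimum level only through KO and *Gm37233* (lower) only through WT. The direction of both is tied to how they entered. With the GC correction 5 were higher and 1 lower, with a median of 0.32. All genes had 13.0% higher and 13.2% lower, and 12.4% and 13.5% with the correction.

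*Mir142hg* (chr11:87755577-87757270, plus strand) is the host of miR-142, a microRNA of blood cells. It had 24.3, 18.3 and 23.1 CPM in WT replicates 1, 2 and 3, and 34.7, 42.3 and 45.3 CPM in KO replicates 1, 2 and 3. The groups were well apart, with means of 21.9 ± 3.17 and 40.8 ± 5.45 CPM (SD, n = 3 each). It had the lowest p-value of the members, with a log2 fold change of 0.89 (± 0.15 SE, unadjusted p = 0.000193, adjusted p = 0.131 in edgeR). The GC correction gave 1.26 (adjusted p = 0.0469). The nearest coding gene, *Tspoap1*, lies 3271 bases away and had a log2 fold change of -0.21 (adjusted p = 0.492).

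*F630028O10Rik* (chrX:96239926-96243636, plus strand) contains the hairpin of miR-223, a microRNA of myeloid cells and abundant in neutrophils. Its values were 40.7, 31.6 and 42.7 CPM in WT and 48.9, 60.4 and 73.4 CPM in KO, again without overlap. The log2 fold change was 0.67 (± 0.17 SE, adjusted p = 0.147), and 0.31 (adjusted p = 0.0782) with the GC correction. The summed neutrophil genes were higher in the same 3 KO libraries, in the order of KO replicates 1, 2 and 3 at 1499, 1628 and 1792 CPM, and their part in this difference was not tested.

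*Mir22hg* (chr11:75461539-75466676, plus strand) is the host of miR-22. It was measured at 29.2, 25.3 and 31.2 CPM in WT and at 35.5, 37.4 and 57.1 CPM in KO, with KO replicate 3 far above the rest. Its log2 fold change was 0.60 (± 0.19 SE, adjusted p = 0.147). *Mir17hg* (chr14:115042879-115046727, plus strand), whose cluster promotes proliferation, holds 6 hairpins and had 17.3, 11.8 and 17.3 CPM in WT and 17.7, 20.6 and 28.3 CPM in KO. KO replicate 1 lay just above the WT values, and the log2 fold change was 0.52 (± 0.21 SE, adjusted p = 0.168), or 0.23 with the GC correction. *Ftx*, which holds miR-421 and miR-374b and lies beside the *Xist* locus, had 5.06, 4.87 and 6.88 CPM in WT and 6.35, 9.20 and 9.22 CPM in KO, which overlapped (log2 fold change 0.56, adjusted p = 0.158).

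Of the remaining hosts, *6720427I07Rik* and *Gm37233* were scarce. *6720427I07Rik* (chr13:48532905-48546500, minus strand), which contains the let-7d, let-7f-1 and let-7a-1 hairpins, had 2.11, 1.09 and 2.78 CPM in WT and 3.07, 3.97 and 4.94 CPM in KO. The groups did not overlap, and the log2 fold change was 0.99 (± 0.32 SE, adjusted p = 0.147). *Gm37233*, with the hairpin of miR-5103, was the exception in direction, with 4.81, 3.72 and 3.15 CPM in WT and 3.33, 1.15 and 1.17 CPM in KO and a log2 fold change of -1.04 (adjusted p = 0.160). *2900076A07Rik* (miR-1839) and *Snhg20* (miR-6516) had log2 fold changes of 0.37 and 0.16, with overlapping libraries. *Gm37233* and *2900076A07Rik* are in none of the lists and were chosen for the hairpins they hold.

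**Figure D4:**
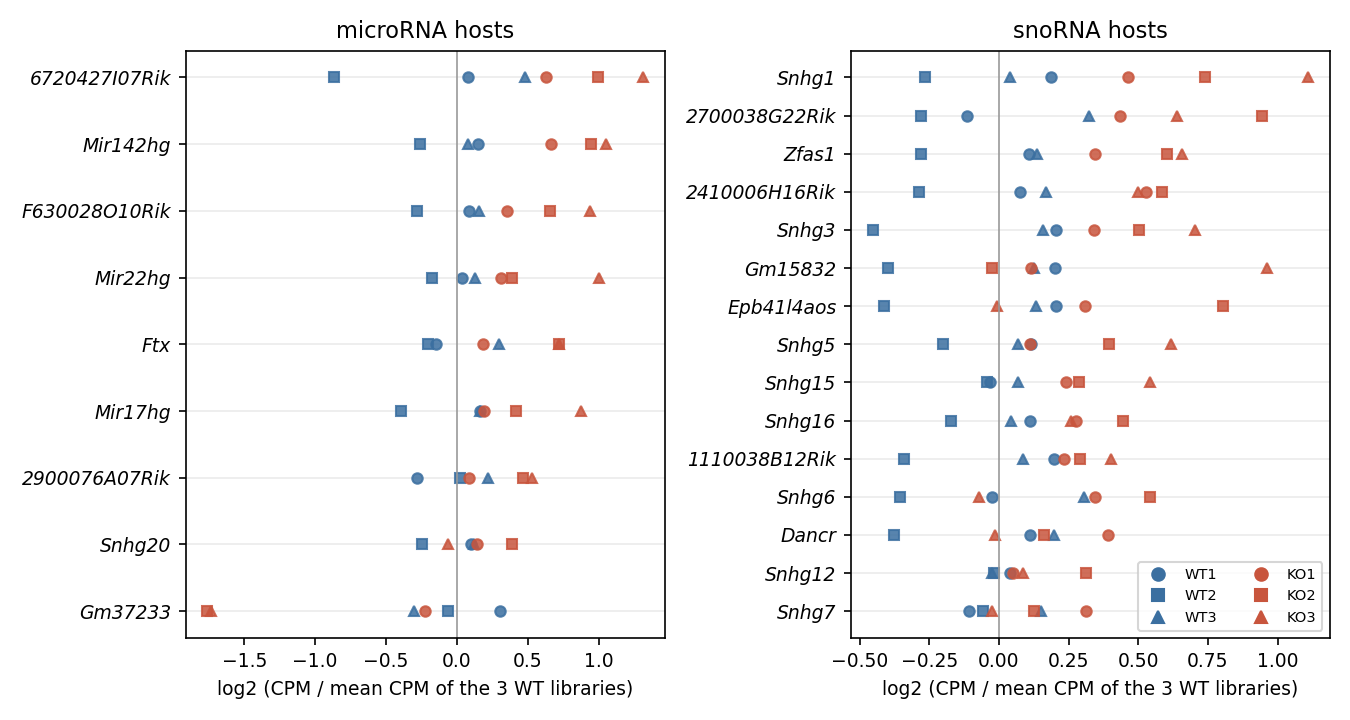
Level of each host member in each library, as the log2 of its CPM over the mean CPM of the 3 WT libraries. WT libraries are blue and KO libraries red, with the replicate number as the shape, and genes are ordered by log2 fold change. KO3 (red triangle) is the highest library for 7 of the 9 microRNA hosts on the left, and WT2 (blue square) is the lowest for 7 of these 9 and for 13 of the 15 snoRNA hosts on the right.

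The snoRNA hosts among the members all had positive fold changes. Of 21 hosts on the list, 12 were members, 12 of 12 had a log2 fold change above 0 (51.0% of all genes did), and 6 had an unadjusted p-value under 0.05 (13.0% of all genes were higher at that limit). The range was 0.14 to 0.80 with a median of 0.35. Adjusted p-values lay between 0.147 and 0.579. The annotation places entries of the snoRNA class inside 17 members, and *AI506816* and *2900076A07Rik* were set aside because their only entry carries a microRNA name (log2 fold changes -0.13 and 0.37, both with an unadjusted p-value above 0.05). Over the other 15, which hold 35 snoRNAs, 8 were higher at an unadjusted p-value under 0.05 and 0 were lower, beside 13.0% and 13.2% of all genes, and 9 had all KO libraries above all WT libraries, beside 16.9%. Their median was 0.39 without and 0.38 with the GC correction, with which 10 of the 15 were higher at an unadjusted p-value under 0.05 (12.4% of all genes). Hosts on the list that were no members, by class or by level, were mixed. *Snhg14*, *Snhg8*, *Snhg11* and *Gas5* had log2 fold changes of 0.77, 0.74, 0.66 and 0.54, *Snhg17* and *Snhg10* had 0.063 and -0.11, and the 2 rows of *Snhg4* had 0.18 and -0.43, with adjusted p-values from 0.147 to 0.871 in edgeR.

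*Snhg1* (chr19:8723475-8726443, plus strand), the host of 8 annotated snoRNAs, had the largest difference of this group. It was measured at 40.8, 29.8 and 36.8 CPM in WT and at 49.4, 59.9 and 77.2 CPM in KO, with no overlap. Its log2 fold change was 0.80 (± 0.18 SE, adjusted p = 0.147), and 0.52 (adjusted p = 0.0469) with the GC correction. *Zfas1* (chr2:167062934-167065862, plus strand), which carries 3 annotated snoRNAs, *Snord12* among them, had 21.4, 16.3 and 21.8 CPM in WT and 25.2, 30.1 and 31.3 CPM in KO (log2 fold change 0.54, adjusted p = 0.147). *Snhg3*, with *Snora73a* and *Snora73b*, had 10.6, 6.73 and 10.3 CPM in WT and 11.7, 13.1 and 15.02 CPM in KO (log2 fold change 0.52, adjusted p = 0.158). In each of these 3 genes WT replicate 2 was the lowest library.

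Smaller positive values were seen in the rest of the group. *Snhg15* and *Snhg16* had log2 fold changes of 0.36 and 0.33 with separate libraries and adjusted p-values of 0.152 and 0.171. *Snhg5*, with *Snord50a* and *Snord50b*, had 22.7, 18.2 and 21.9 CPM in WT and 22.7, 27.5 and 32.1 CPM in KO, so that KO replicate 1 lay within the WT range, and a log2 fold change of 0.39 (adjusted p = 0.164). *Epb41l4aos*, *Snhg6*, *Dancr*, *Snhg20*, *Snhg12* and *Snhg7* had log2 fold changes of 0.40, 0.29, 0.19, 0.16, 0.15 and 0.14, all with an unadjusted p-value above 0.05, and only for *Snhg12* did the libraries not overlap. Among hosts outside the list, *2410006H16Rik*, the host of *Snord49a*, *Snord49b* and *Snord65*, had 15.02 ± 2.40 CPM in WT and 21.8 ± 0.667 CPM in KO (SD, n = 3 each). It differed by 0.54 on the log2 scale (adjusted p = 0.147), and *2700038G22Rik*, the host of *Snord93*, by 0.68 (adjusted p = 0.149). Both were chosen for the snoRNAs they hold, and *2700038G22Rik* was a member only through KO, with a WT mean of 45.7 counts.

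Many snoRNA hosts are known to begin, like ribosomal protein messages, with a C followed by a run of pyrimidines, which ties their RNA to translation and growth signalling. Such a run was taken as a C and at least 4 further pyrimidines that begins within 5 bases of the RefSeq start on the transcribed strand. A gene was counted when any of its promoters held the run. The run was present in 5 of the 12 hosts with a RefSeq promoter (41.7%). It was also present in 25 of 111 other members (22.5%) and in 21.2% of 27025 genes with a promoter. Starts of 3 hosts are shown because they let the run be seen, each from 20 bases before the RefSeq start in GRCm38.p6, with the run in capitals.
*2410006H16Rik* (chr11:62602857-62602901, plus strand): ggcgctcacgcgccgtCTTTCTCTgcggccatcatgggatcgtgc
*2700038G22Rik* (chr5:23850577-23850621, plus strand): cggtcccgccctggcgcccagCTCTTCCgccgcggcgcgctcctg
*Snhg3* (chr4:132353662-132353706, minus strand): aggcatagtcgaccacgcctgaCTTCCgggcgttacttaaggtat
*Snhg1*, *Zfas1*, *Snhg5*, *Snhg15*, *Snhg16*, *Snhg20* and *Dancr* had no such run in this window at the RefSeq start.

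Macrophage and growth-linked lncRNAs formed 2 shorter lists. Of 12 macrophage, inflammation and NFAT genes, 3 were members, and 2 of these were higher at an unadjusted p-value under 0.05, beside 13.0% of all genes. With the GC correction the same 2 were higher and *Gm20559* was lower at that limit, beside 12.4% and 13.5% of all genes. *Morrbid* (chr2:128178319-128502765, minus strand), which keeps short-lived myeloid cells alive by repressing *Bcl2l11*, had 13.5, 12.7 and 13.9 CPM in WT and 16.1, 19.3 and 18.5 CPM in KO, without overlap. Its log2 fold change was 0.42 (± 0.12 SE, adjusted p = 0.147), while *Bcl2l11*, 15772 bases away, had 73.6 ± 0.771 CPM in WT and 74.1 ± 1.56 CPM in KO (SD, n = 3 each) and a log2 fold change of 0.0095 (adjusted p = 0.949). The other members were *F630028O10Rik*, described above, and *Gm20559*, with a log2 fold change of 0.033 that turned to -0.24 with the GC correction. *Nron*, the lncRNA that holds NFAT in the cytoplasm, was no member, with 0 to 5 counts per library. Of 9 p53-linked and growth genes, 2 were members. *Pvt1*, which neighbours *Myc*, had 4.61, 3.67 and 5.20 CPM in WT and 6.51, 6.15 and 6.36 CPM in KO and a log2 fold change of 0.50 (± 0.17 SE, adjusted p = 0.150). *Myc* itself, 47612 bases away, had a log2 fold change of -0.34 (adjusted p = 0.187). *Oip5os1* had a log2 fold change of 0.19 (adjusted p = 0.399), which changed sign to -0.098 with the GC correction.

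The largest increases with separate libraries belonged to scarce members, and 4 of these 5 were members only through their KO libraries. The WT mean was 25.7 counts for *Gm56862*, 42.0 for *Ndufb4b*, 43.2 for *Gm48942* and 38.3 for *6720427I07Rik*, so their rank is a description of what the minimum let in. *Gm56862* had 1.20, 0.821 and 1.99 CPM in WT and 2.40, 2.36 and 9.06 CPM in KO, so that KO replicate 3 made most of its log2 fold change of 1.79 (± 0.59 SE, adjusted p = 0.148). *Ndufb4b* had 3.26, 0.383 and 2.83 CPM in WT and 6.67, 4.48 and 6.62 CPM in KO, and there WT replicate 2 stood far below the others (log2 fold change 1.44 ± 0.48 SE, adjusted p = 0.148). The name describes a copy of a respiratory chain subunit gene, and reads shared with *Ndufb4* may have been divided. *Gm48942* had 1.80, 2.19 and 2.78 CPM in WT and 3.49, 5.41 and 6.11 CPM in KO (log2 fold change 1.15), and *Gm6712* had 3.71, 2.85 and 3.52 CPM in WT and 4.64, 6.84 and 8.86 CPM in KO (log2 fold change 1.01), both with an adjusted p = 0.147 in edgeR. The fifth was the let-7 host *6720427I07Rik*.

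Among members with separate libraries, 4 of the 5 largest decreases were antisense to a coding gene with which they share exonic bases, and the fifth was *Airn*. *A230020J21Rik* and *Gm9888*, with KO means of 30.0 and 35.7 counts, entered through their WT libraries, and so did *Gm37233*. The intergenic *Gm37233* described above had a larger decrease than 4 of these 5 but overlapping libraries. *A230020J21Rik* (chr1:191025350-191029781, plus strand) shares 809 exonic bases with *Flvcr1*, which encodes a haem exporter. It had 4.86, 5.47 and 5.72 CPM in WT and 3.18, 1.15 and 0.458 CPM in KO, where KO replicate 3 was lowest. Its log2 fold change was -1.74 (± 0.46 SE, adjusted p = 0.147), and -1.43 (adjusted p = 0.0821) with the GC correction. *Flvcr1* had a log2 fold change of 0.21 (adjusted p = 0.298).

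*6330403L08Rik*, antisense to the growth factor gene *Pdgfa* over 813 exonic bases, had 13.0, 15.7 and 14.9 CPM in WT and 10.6, 9.37 and 6.82 CPM in KO. Its log2 fold change was -0.70 (± 0.18 SE, adjusted p = 0.147), and that of *Pdgfa* was 0.038. *Gm9888*, antisense to *Cmtm7*, had 3.16, 4.21 and 3.88 CPM in WT and 3.07, 1.90 and 0.764 CPM in KO (log2 fold change -0.97, adjusted p = 0.164). *Gm45606* shares 922 exonic bases with *Slc43a2*, a neutral amino acid transporter gene. It had 15.4, 20.03 and 17.1 CPM in WT and 14.7, 12.4 and 7.69 CPM in KO (log2 fold change -0.59, adjusted p = 0.161), and *Slc43a2* had -0.47 (adjusted p = 0.147). The kit marks strand, but the strand setting of the counting is not given in the sources used here, so reads of such a pair may not have been kept apart.

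**Figure D5:**
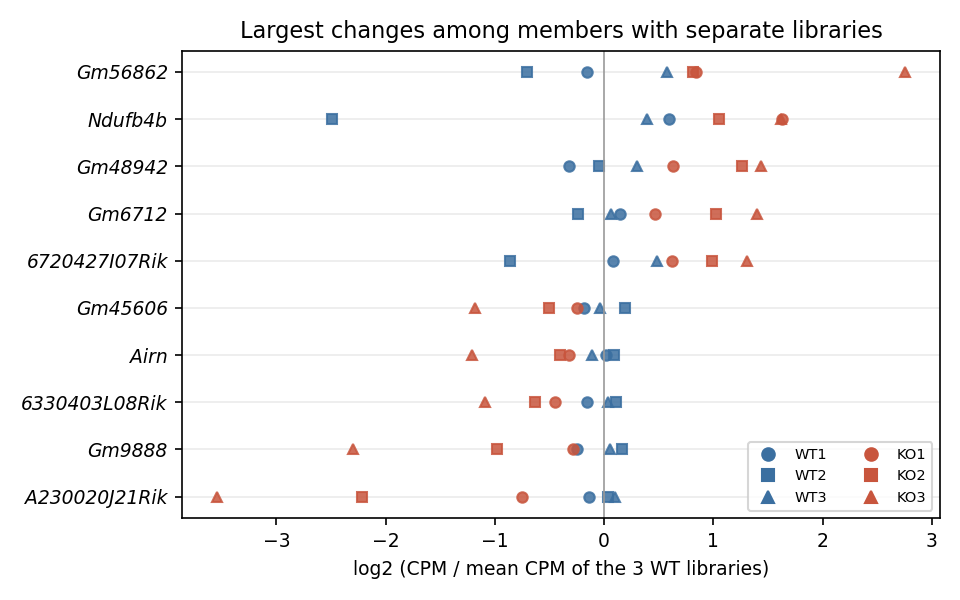
Level in each library of the 5 members with the largest increase and the 5 with the largest decrease among those with an unadjusted p-value under 0.05 and separate libraries, as the log2 of CPM over the mean CPM of the 3 WT libraries. WT libraries are blue and KO libraries red, with the replicate number as the shape. KO3 is the lowest library of all 5 genes that were lower, and WT2 the lowest library for 4 of the 5 that were higher.

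The members were also grouped by position relative to the coding genes of GENCODE M21. Of the 218 annotated members, 92 were intergenic, 69 antisense with shared exons, 26 inside a gene without a shared exon, 18 divergent with starts within 1000 bases, and 13 on the same strand with shared exons. At an unadjusted p-value under 0.05, 26 intergenic members were higher and 2 lower (28.3% and 2.17%), and 10 antisense members were higher and 7 lower (14.5% and 10.1%), where all genes had 13.0% and 13.2%. The divergent class had 5 higher and 0 lower, and the 26 members inside a gene had 7 higher and 1 lower. The largest share higher was in the same-strand class, with 5 of 13 higher (38.5%) and 0 lower. Strand cannot keep reads apart in that class, which holds *Snhg3* (135 exonic bases shared with *Rcc1*). The difference between the classes was not tested. The 7 antisense members that were lower had a GC content of 53.7% to 65.0%, against a median of 47.2% over the 218, and a part of GC content in this split was not tested by class.

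The differences of members were then set beside those of their nearest or overlapping coding gene, over the 171 pairs in which both were tested and the neighbour is protein-coding in the deposited table too. Another 2 pairs were left out because it is not, *G530011O06Riky* with *Erdr1y*, itself a member, and *Gm48765* with *Fars2*. Pearson's r between the paired log2 fold changes was 0.15 over all pairs and -0.022 over the 61 antisense pairs, as a description, since all pairs share the same 6 libraries. The signs were the same in 91 of the 171 pairs. Of the 165 different coding genes in them, 11 were higher (6.67%) and 35 lower (21.2%) at an unadjusted p-value under 0.05, where all genes had 13.0% and 13.2%. At this limit, 53 annotated members were higher and 10 lower, so opposite directions would be frequent even in pairs matched at random. In 16 pairs both genes had an unadjusted p-value under 0.05, and in 10 of these they went in opposite directions, which was not tested. *Zfas1* and *Znfx1*, an antiviral RNA helicase gene on the other strand with 82 shared exonic bases, were such a pair, with log2 fold changes of 0.54 and -0.61. *Znfx1* had 140, 169 and 149 CPM in WT and 122, 98.8 and 79.7 CPM in KO (adjusted p = 0.147). *Snhg1* starts 106 bases from *Slc3a2*, which encodes the heavy chain of amino acid transporters, and that gene had a log2 fold change of -0.24 (adjusted p = 0.206). *Gm20186* and the divergent *Lsm8*, a component of spliceosomal particles, went the same way at 0.77 and 0.59.

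DESeq2 called members that edgeR did not. With DESeq2's Wald test at the same limits, 11 members were higher, beside 0.516% of the 10456 genes with an adjusted p-value, and 1 was lower, beside 0.689%. Only 218 of the 297 members had an adjusted p-value there. The 11 were *Mir142hg*, *Malat1*, *Snhg1*, *Gm20186*, *Gm42047*, *Gm4316*, *Gm56730*, *Gm56906*, *Gm56555*, *2810025M15Rik* and *Erdr1y*, and those outside the 3 first, and the copy *Erdr1x* below, were chosen after their values were seen. *Gm20186* (chr6:18845910-18848207, minus strand) had 159, 138 and 150.2 CPM in WT and 209, 229 and 324 CPM in KO. *Gm42047* had 118, 133 and 127 CPM in WT and 178, 173 and 194 CPM in KO, which were well apart, with a log2 fold change of 0.53 (adjusted p = 0.136 in edgeR and 0.0239 there with the GC correction). *2810025M15Rik* was the most even, at 23.5 ± 1.43 CPM in WT and 35.8 ± 0.869 CPM in KO (SD, n = 3 each).

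*Erdr1y* had 106 ± 1.84 CPM in WT and 146 ± 17.3 CPM in KO (SD, n = 3 each), but its copy *Erdr1x*, also a member, had 29.5 ± 17.4 and 19.8 ± 5.39 CPM and the opposite sign (log2 fold change -0.57, adjusted p = 0.328). The copies are nearly identical, and their counts added up to 126, 154 and 125 CPM in WT and 154, 181 and 164 CPM in KO. The single member lower with DESeq2 was *4833438C02Rik* (chr19:46303591-46305611, minus strand), which shares 531 exonic bases with *Nfkb2* on the other strand, the gene for an NF-κB subunit. It had 18.0, 18.8 and 17.6 CPM in WT and 12.9, 11.6 and 11.8 CPM in KO, with a log2 fold change of -0.58 (± 0.11 SE, adjusted p = 0.136 in edgeR). *Nfkb2* had 239, 296 and 242 CPM in WT and 224, 206 and 147 CPM in KO (log2 fold change -0.43, adjusted p = 0.161), and reads of this pair may not have been kept apart by strand.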

How the data were processed

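RNA from 3 WT and 3 KO OCP cultures was sequenced on an Illumina NovaSeq X Plus. The authors deposited estimated counts per gene, partly not whole and not normalized. Their processing notes name fastp, HISAT2, StringTie, RSEM and GRCm39, without versions, roles or a strand setting. The table's genotype means were not used. Counts were rounded and compared in R 4.3.3 with edgeR 4.0.16 (filterByExpr, TMM scaling, glmQLFit with legacy = FALSE, glmQLFTest, two-sided), with Benjamini-Hochberg adjustment over the 13428 genes tested. A gene counted as called at an adjusted p below 0.01 and over 1.3-fold. CPM values are TMM-scaled, and marker sums use total counts. Alternatives were DESeq2 1.42.0 (Wald test), limma-voom (limma 3.58.1), edgeR's legacy quasi-likelihood fit, scaling by RLE size factors or by library totals only, testing unfiltered genes or just those reaching 10 counts throughout, an adjusted p below 0.05 with or without the fold limit, other minimum levels, blocking on replicate number, omitting libraries, and a GC correction, and the fits were tested on simulated counts. Intervals cover counting error only. Where cultures share a mouse, p-values measure technical spread.

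The members and lists were chosen with earlier results of these data known. Named genes are members past the limits, the 5 largest increases and decreases with an unadjusted p-value under 0.05 and separate libraries, the 8 with the highest mean count, those beside the minimum level, members of 6 lists, and genes said to be chosen otherwise. Positions, GC content (longest transcript), exon overlap and hosted RNAs are from GENCODE M21 on GRCm38, which holds 218 of 297 members (73.4%), matched by gene identifier, and sequences from RefSeq (GRCm38.p6), with a promoter for 123 members. GRCm39 coordinates were not used here. A neighbour is the overlapping or else the nearest coding gene. In the GC correction, the deviations of a library from the mean were smoothed against GC content (natural spline, 5 df) and entered as offsets.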

Additional observations from a re-analysis of the deposited data

How the results depend on the processing

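More members were higher than lower at an unadjusted p-value under 0.05, and the median was above 0, under all alternatives of test, scaling, count filter, minimum level, block, GC correction and left-out libraries. With limma-voom, edgeR's legacy fit, both other scalings and both other filters, 66 to 80 were higher and 14 to 16 lower, where 8.16% to 13.8% of all genes were higher and 8.84% to 13.9% lower. The count of members past the limits stayed at 0 except with DESeq2 (11 higher, 1 lower), where all genes gave 54 higher and 72 lower instead of 0 and 1; the cause was not tested. With each library left out in turn, members higher at an unadjusted p-value under 0.05 numbered 38 to 86, those lower 7 to 25 (5.61% to 16.5% and 5.60% to 16.7% of all genes), and all genes lower past the limits 0 to 2. With WT replicate 2 and KO replicate 3 both left out, an alternative chosen after seeing the data, 5 genes were higher and 3 lower past the limits, none of them members. The lowest adjusted p-value of a member in edgeR was 0.0175 there and 0.0352 without KO replicate 1, so some members were under 0.05 in both. Taking a mean of 100 or of 20 counts as the minimum gave 8 or 34 lower members, with fewer or more genes counted. With the minimum of 100, 38 of the 145 members below 1000 counts and 13 of the 25 others were higher. All genes had 13.0% higher and 13.2% lower in this fit.

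With the replicate number as a block, 78 members were higher and 16 lower (12.6% and 13.9% of all genes), and the median was 0.16. The deviations of same-numbered libraries from their group means had r = -0.33, 0.14 and 0.27 for replicates 1, 2 and 3. Not every library correlated best with its own number, and no source says that numbers pair cultures. The planned GC correction over all members was not run, since only 73.4% have a GC value, under the 80% required. Read over the 218 that do, as chosen after seeing the data, it gave 46 higher and 14 lower, and 42 and 15 with the replicate block (10.7% and 11.6% of all genes). The 4 members with an adjusted p-value under 0.05 with the GC correction became 0 with the block added, where the lowest was 0.0514.

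Of the 45 members named by the rules and lists above, 6 changed sign in some alternative, and these had absolute log2 fold changes of at most 0.19. Genes said to be chosen otherwise were not part of this count. With the GC correction alone or with the block, *Gm20559* gave -0.24 and -0.25, *Oip5os1* -0.098 and -0.099, and *Gm32856* -0.010 and -0.019. Leaving out libraries, singly or WT replicate 2 with KO replicate 3, gave ranges of -0.027 to 0.28 for ENSMUSG00000121777, -0.19 to 0.076 for *Gm15501*, -0.11 to 0.19 for *Gm32856*, -0.10 to 0.10 for *Gm20559*, -0.049 to 0.22 for *Norad* and -0.050 to 0.27 for *Oip5os1*.

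The median standard error of the members' log2 fold changes was 0.23 for the 127 members with a mean under 100 counts and 0.13 for the 25 with 1000 or more, and counting error was not separated from the spread between libraries. Estimated counts that are not whole, in 220 members, depend on how reads were divided.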
